A study of Homo sapiens with 4 samples.

Results

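The response of MDA-MB-231 cells to JPH203 was read from 2 of the 4 arrays of the series, 1 from cells given JPH203 and 1 from cells given the vehicle. MDA-MB-231 is a triple negative breast cancer line, bought from ATCC and grown in RPMI1640 complete medium. Cells received 100 μM JPH203, an inhibitor of the amino acid transporter LAT1, for 24 h, and the control received Captisol, a modified cyclodextrin that serves as the solvent, at the same concentration. Total RNA was hybridised to Affymetrix U133 Plus 2.0 arrays, on which a gene is read by 1 or more probe sets. A gene entered when the brightest probe set that names it alone had a signal of at least 100 (arbitrary units) on both arrays, which held for 6792 of 19775 named genes. A further 170 genes were above it with Captisol only and 229 with JPH203 only, so genes that crossed it are in no count or median. Each condition was measured on 1 array, so no value below has an error or a p-value, and the number of arrays limits the precision. The size of a difference was judged by fixed ratios of JPH203 to Captisol signal and by its distance from genes of similar signal.

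LAT1, encoded by SLC7A5, carries leucine and other large neutral amino acids into the cell as a heterodimer with the heavy chain 4F2hc, encoded by SLC3A2. A shortage of amino acids leaves tRNAs uncharged, which activates the kinase GCN2, and phosphorylation of eIF2α then lowers general translation while that of the transcription factor ATF4 rises. ATF4 induces amino acid transporters, tRNA synthetases and enzymes that make non-essential amino acids, among them ASNS. Leucine also keeps the growth kinase complex mTORC1 active at the lysosome.

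The arrays carried the markers of the line they were labelled with. Of 13 MDA-MB-231 markers on the array, 12 were above the minimum on both arrays, with a summed signal of 46997 with Captisol and 46035 with JPH203. All 13 fibroblast, immune and endothelial markers were below it, with sums from 17.3 to 110.6 with Captisol and from 20.3 to 91.3 with JPH203. Of 14 luminal markers, chosen for T-47D, 5 were above the minimum on both arrays, and all 14 summed to 3087 and 3253. The brightest of them was KRT19, at 1671 with Captisol and 1770 with JPH203. The log2 ratios of the 6792 genes had an SD of 0.20 and a median of -0.01, and 95% of the ratios lay between 0.777 and 1.32. The poly-A spike-in transcripts had 0.927 times the signal on the JPH203 array, and scaling to them would raise every log2 ratio by 0.11. In a bulk culture, fewer cells that hold a transcript and less of it in each cell cannot be told apart.

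ASNS, which makes asparagine from aspartate and glutamine, had a signal of 234 with Captisol and 2091 with JPH203, the largest ratio at 8.93. PSAT1, an aminotransferase of serine synthesis, had signals of 1121.5 and 2739 at a ratio of 2.44, and CTH, which releases cysteine from cystathionine, had 188 and 412, a ratio of 2.20. CYP1B1, an oxidising enzyme of the cytochrome P450 family induced through the aryl hydrocarbon receptor, had 1192.5 and 3046, a ratio of 2.55. NNMT, which methylates nicotinamide, went from 349.5 to 794 and RBL2, a pocket protein that represses cell cycle genes, from 125 to 275. These 6 genes, 0.0883% of those measured, were at least 2-fold higher, and 1 gene (0.0147%), the protein kinase A anchoring protein AKAP12, was at least 2-fold lower, with signals of 284 and 139.9. AKAP12 rests on 1 probe set of the _s_at kind, which can bind several transcripts, and 0 genes were 2-fold lower with a pseudocount of 16, a minimum of 200 or scaling to the poly-A spike-ins. ASNS, CYP1B1 and PSAT1 are also read above the minimum by _s_at probe sets alone, so that 3 genes were 2-fold higher without these. CTH and RBL2 were each read above the minimum by 1 probe set. Both were under 200 with Captisol, and 4 genes were 2-fold higher at a minimum of 200. At 1.3-fold, 221 genes (3.25%) were higher and 146 (2.15%) lower, so that 215 and 145 of them lay between 1.3- and 2-fold. Of these calls 60.2% were higher, against 90.6% when the arrays were scaled to the poly-A spike-ins. Among rises, nearest to the 2-fold limit were CTH and RBL2 inside it, and CEMIP at 1.90 and POLD4 at 1.87 outside it. Among falls, AKAP12 at 0.493 lay just inside the limit and INF2 at 0.577 outside it. At 1.3-fold, MICB at 1.3002 lay just inside the limit and ANXA4 at 1.2998 just outside it.

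The spread of the ratios depended on the signal, being wider among dim genes. Each gene was therefore also set against the 500 genes nearest to it in signal. By this measure 23 genes (0.339%) lay 4 or more robust SDs above the local median and 7 (0.103%) as far below it. SLC7A5, a bright gene with signals of 1168 and 2024, stood 5.57 robust SDs above genes of similar signal at a ratio of 1.73. TXNRD1, thioredoxin reductase, passed at a ratio of 1.27, its signals of 3704 and 4708 being in the range where the spread was narrow. CEMIP, a hyaluronan-degrading protein, did not pass at 1.90, with signals of 103 and 197 in the range where it was wide.

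**Figure D1:**
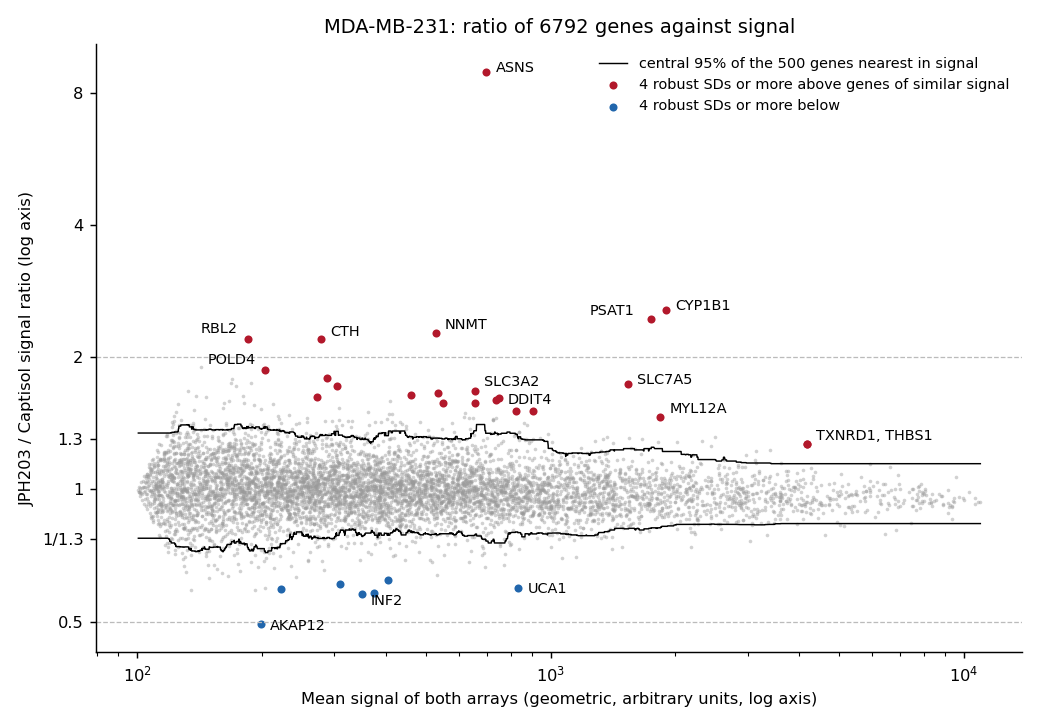
JPH203 to Captisol signal ratio of each of the 6792 genes (vertical, log axis) against the mean signal of both arrays (horizontal, arbitrary units, log axis), 1 array per condition. Black lines enclose the central 95% of the 500 genes nearest in signal, red and blue points lie 4 or more robust SDs from the local median, and dashed lines mark 2-fold; ASNS at 8.93 lies far above all other genes, and the 23 red points span ratios from 1.27 to 8.93.

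Most genes of the ATF4-driven amino acid response were higher with JPH203. Of 28 measured members, 25 were higher, and 11 of them by at least 1.3-fold, while none of the 28 was lower by as much. KLHL24, a ubiquitin ligase adaptor of the same list, had 126.9 and 61.1 by an _x_at probe set and was not counted, as it was under the minimum with JPH203, and neither was the neutral amino acid transporter SLC1A4, at 67.2 and 131.3. The 28 measured genes had a median log2 ratio of 0.28, beside -0.01 for all genes, of which 48.2% were higher and 51.6% lower. At least 1.3-fold higher were 3.25% of all genes, and 2.15% were as much lower. After ASNS, PSAT1 and CTH came both chains of the drug's own target, SLC7A5 and its partner SLC3A2. The signal of SLC3A2 was 509 with Captisol and 851 with JPH203, a ratio of 1.67. DDIT4, an inhibitor of mTORC1, had 591 and 953, a ratio of 1.61. WARS1, the cytosolic tryptophanyl-tRNA synthetase, had 295 and 442, and the second probe set of WARS1 showed a ratio of 1.37 beside 1.50. The other members past 1.3-fold were PCK2, a mitochondrial enzyme that makes phosphoenolpyruvate (1.45), the transcription factor DDIT3 (1.44), the pseudokinase TRIB3 (1.34) and SLC7A11, the cystine transporter (1.31). DDIT3 and TRIB3 were dim, with signals of 106 and 153 and of 141 and 189.

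The transcript of ATF4 itself was not higher, with 1466 on the Captisol array and 1357 on the JPH203 array, a ratio of 0.93. ATF5, a related factor, had a ratio of 0.90, and CEBPB, which pairs with ATF4 on DNA, of 1.21. SHMT2 and MTHFD2, which handle folate-bound carbon units in mitochondria, were at 1.03 and 1.09, although the second SHMT2 probe set was at 1.51. Several known members could not be measured here. CHAC1, which degrades glutathione, had signals of 2.9 and 16, both far below the minimum, and the brightest ATF3 probe set had 81.3 and 88.6. The brightest SESN2 probe set had 44.4 and 61.5.

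**Figure D2:**
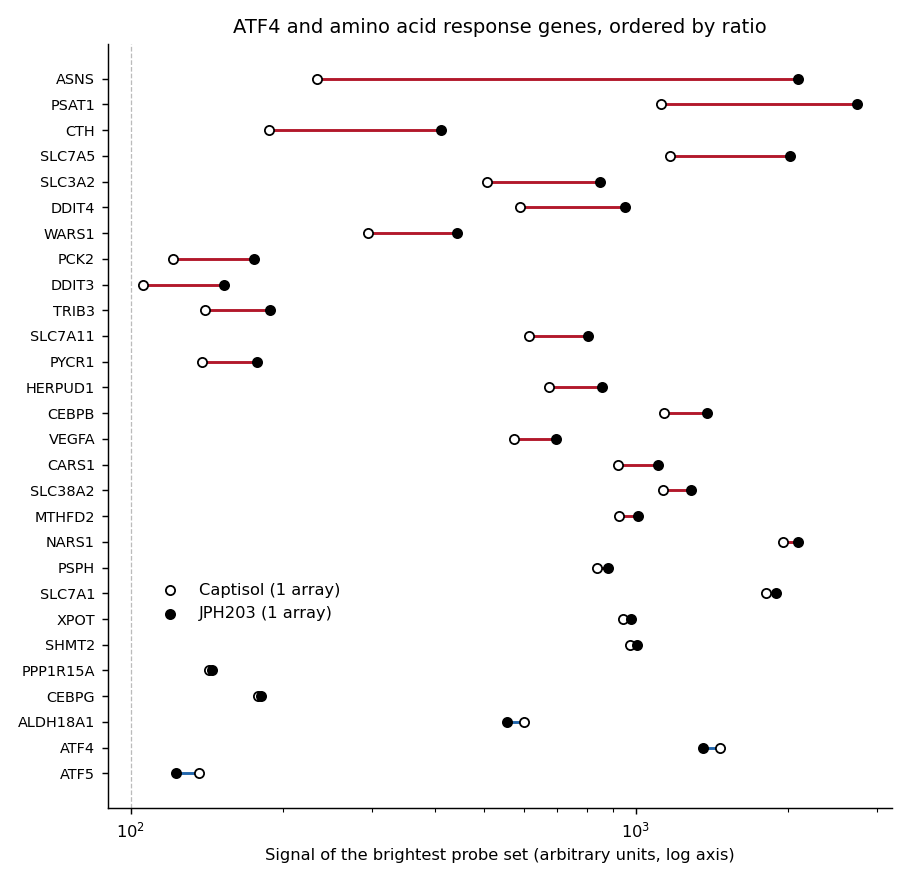
Signal of the brightest probe set (horizontal, arbitrary units, log axis) of 28 ATF4 and amino acid response genes on the Captisol array (open circles) and the JPH203 array (filled circles), 1 array each, ordered by ratio. Red lines join genes that were higher with JPH203 and blue lines those that were lower; 25 of 28 lines are red, and ATF4 is among the 3 blue ones.

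ATF4 binds DNA as a dimer with C/EBP proteins at a composite element, TGATGNAA, which was sought on both strands of promoter windows from 250 bases before to 50 bases after each RefSeq transcript start (GRCh38.p14). Of 35116 windows, 3.62% held the letters. Among measured genes with a window, 2.84% of 5808 did, as did 7 of 186 genes at least 1.3-fold higher (3.76%) and 5 of 122 at least 1.3-fold lower (4.1%). In the ATF4 list, which is made of known targets, 7 of 23 did. Of the 18 genes with a window among those 4 robust SDs above their neighbours, 3 held a match, ASNS, SLC3A2 and MAGED1. The matching stretches of these genes are shown, 5′ to 3′ on the strand of the gene, with the match in capitals. In ASNS the match begins 68 bases before the start, within the 100 bases printed (chr7:97872409-97872508, minus strand). In MAGED1, which encodes a neurotrophin receptor-interacting protein, it is on the opposite strand and begins 147 bases before the start (chrX:51802896-51802965, plus strand). In SLC3A2 it is also on the opposite strand, from base 38 of a transcript (chr11:62881719-62881748, plus strand).
ASNS: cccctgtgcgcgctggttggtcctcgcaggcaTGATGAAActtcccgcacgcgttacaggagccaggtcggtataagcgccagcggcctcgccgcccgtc
MAGED1: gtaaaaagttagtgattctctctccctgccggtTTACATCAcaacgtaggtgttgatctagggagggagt
SLC3A2: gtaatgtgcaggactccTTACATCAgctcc
A match describes these letters alone, and the windows of PSAT1, CTH and SLC7A5 had none.

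Among 9 measured amino acid transporter genes, the 3 that were at least 1.3-fold higher, SLC7A5, SLC3A2 and SLC7A11, encode chains of heterodimeric transporters. The other 6 measured transporter genes lay nearer to 1, and the list median was 0.19. Over all genes 3.25% were at least 1.3-fold higher. SLC7A6 (y+LAT2), also a light chain of a heterodimeric transporter, went from 128.0 to 97.9 at a ratio of 0.76, but was under the minimum with JPH203 and so is not among the 9. The 2 SLC7A11 probe sets gave 1.31 and 1.32. SLC38A1 and SLC38A2, sodium-coupled neutral amino acid transporters, had ratios of 1.23 and 1.14, and the cationic transporter SLC7A1 of 1.05. The lysosomal transporters SLC36A1 and SLC38A9 were at 0.94 and 0.86. Other relatives of LAT1 were below the minimum on both arrays, the brightest probe set of SLC7A8 (LAT2) having signals of 32.5 and 40.3 and that of SLC43A1 (LAT3) 37.6 and 44.1. The list median depended on shared probe sets, being -0.03 relative to all genes when those with the suffix _x_at or _s_at were left out, since SLC7A5 and SLC3A2 are each read by an _s_at probe set alone.

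The cytosolic aminoacyl-tRNA synthetases, which charge tRNAs with amino acids, split by member. Of 17 measured, 9 were higher and 8 lower, near the 48.2% and 51.6% of all genes. The list median of 0.10 became -0.048 relative to all genes without _x_at and _s_at probe sets. At 1.3-fold, 3.25% of all genes were higher and 2.15% lower. WARS1 was at 1.50 and EPRS1, the glutamyl-prolyl synthetase, at 1.33, with a second EPRS1 probe set at 1.26. SARS1 (1.21), CARS1 (1.20), IARS1 (1.17) and LARS1 (1.16) followed. FARSA, the catalytic chain of the phenylalanyl synthetase, was lower, from 442 to 336, with probe sets at 0.76 and 0.79. The mitochondrial synthetases, a list added after values had been seen, had a median of -0.20 over 12 genes, but one of 0.088 relative to all genes by the second probe sets of 4 of them. EARS2, for glutamate, had signals of 219 and 143 and YARS2, for tyrosine, 288 and 192, ratios of 0.65 and 0.67.

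PSAT1 was the measured gene of serine and folate metabolism past 1.3-fold by its brightest probe set. By that reading the other 8 members had ratios between 0.78, that of MTHFD1, and 1.09. The list median was -0.11, but relative to all genes it was 0.040 with the mean of probe sets and 0.16 by the second probe sets, among them that of SHMT2 at 1.51. PSPH, the enzyme after PSAT1 in serine synthesis, had signals of 837 and 883 at a ratio of 1.05. In the methionine cycle and transsulfuration list, NNMT and CTH were past 1.3-fold and the other 7 genes lay between 0.86 and 1.08. The 2 brighter NNMT probe sets gave 2.27 and 2.29, and the PSAT1 probe sets 2.44 and 2.47, so these pairs were within a few percent of each other. A dimmer CTH probe set had signals of 44.4 and 139.1. ARG2, the mitochondrial arginase, was the polyamine and arginine gene that differed most, with signals of 250.2 and 148 at a ratio of 0.59.

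In the aryl hydrocarbon receptor list, all 6 measured genes had ratios above 1, of which 3 passed 1.3-fold, CYP1B1, SLC7A5 and TIPARP, and the median was 0.48. Over all genes 48.2% were above 1 and 3.25% at least 1.3-fold higher. Relative to all genes the list median was 0.49, or 0.31 at a minimum of 50 and without _x_at and _s_at probe sets. TIPARP, an ADP-ribosyltransferase that represses the receptor, had signals of 523 and 825 at a ratio of 1.58. The 3 bright CYP1B1 probe sets gave 2.34, 2.40 and 2.55. The receptor gene AHR had 304 and 346, a ratio of 1.14. CYP1A1, the best known target, had 69.7 on the Captisol array, below the minimum, and 215 on the JPH203 array. SLC7A5 is on both this list and the ATF4 list, and NQO1 and NFE2L2 are also NRF2 genes.

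Hypoxia-inducible genes were mostly higher as well. Of 17 measured, 15 were higher and 5 of them by at least 1.3-fold, with a median of 0.28. Over all genes these shares were 48.2% and 3.25%. BNIP3L, a mitophagy receptor, had signals of 414 and 686 at a ratio of 1.66, and the second BNIP3L probe set was at 1.29. DDIT4 is also on this list. NDRG1, a stress-responsive gene, had 439 and 688.5, a ratio of 1.57, LOX, lysyl oxidase, was at 1.40 and MXI1, a MYC antagonist, at 1.37. BNIP3 had probe sets at 1.29 and 1.45. HIF1A itself, whose product is controlled mainly by its stability, had 3981 and 3682, a ratio of 0.92. Glycolytic genes, many of which also respond to hypoxia, had a list median of -0.03 over 17 genes, with none past 1.3-fold.

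Genes of glutathione synthesis and other NRF2 targets were shifted by less. Of 22 measured, 16 were higher, beside 48.2% of all genes. Only SLC7A11 passed 1.3-fold, where 3.25% of all genes were as much higher, and the median was 0.06. TXNRD1 was at 1.27, and NQO1, a quinone reductase, had signals of 2850 and 3477 at a ratio of 1.22 with a second probe set at 1.37. GCLC and GCLM, the chains of the enzyme that begins glutathione synthesis, were at 1.27 and 1.17, and the transcription factor gene NFE2L2 was at 1.24. GSS, the enzyme that completes glutathione, was at 0.95.

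Regulators of mTORC1 differed one by one. Of 14 measured, 4 passed 1.3-fold, all higher, where 3.25% of all genes were as much higher, and the list median was 0.01. They were DDIT4, EIF4EBP1, a repressor of cap-dependent translation (512.0 and 747, a ratio of 1.46), FNIP1, a partner of folliculin (1.35), and RRAGD, a Rag GTPase of the lysosomal surface (1.35). FNIP1 and RRAGD were dim, with signals of 147 and 198 and of 107 and 144. They lay 1.88 and 1.82 robust SDs above genes of similar signal. MTOR had signals of 115 and 62.4 and so fell under the minimum on the JPH203 array. In the endoplasmic reticulum list, 17 of 21 genes were higher, beside 48.2% of all genes. Only DNAJB9 passed 1.3-fold there, at 1.44 with a second probe set at 1.61. HSPA5, the main chaperone of that compartment, was at 1.00. Cytosolic heat shock proteins were mostly lower, 12 of 13 genes beside 51.6% of all genes, with none of the 13 past 1.3-fold and a median of -0.12. HSF1, the factor that induces them, went from 159.8 to 98.4 at a ratio of 0.62 and was not counted because the latter is under the minimum.

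Of 23 genes of the cytokine and chemokine list, which also holds inhibitors of NF-κB, 5 could be measured, all of them higher. Over all genes 48.2% were higher and 3.25% at least 1.3-fold higher. Relative to all genes the median of these 5 was 0.41, but 0.19 at a minimum of 50. IL24, a cytokine of the IL-10 family, had signals of 142 and 248 at a ratio of 1.74, CXCL8 was at 1.33, and NFKBIA, an inhibitor of NF-κB, at 1.32. TNFAIP3, another such inhibitor, was at 1.11 and the cytokine IL11 at 1.06. The extracellular matrix list had 3 of 27 genes at least 1.3-fold higher, beside 3.25% of all genes, with a median of 0.10. They were CEMIP, SERPINE2 (315 and 449, a ratio of 1.42) and LOX. THBS1, thrombospondin 1, had 3700 and 4692, a ratio of 1.27, but the second THBS1 probe set was at 1.06 and the brightest without the _x_at and _s_at kinds at 0.890. All 12 measured genes with an HLA symbol, a list added after values had been seen, had ratios above 1, beside 48.2% of all genes. They ran from 1.10 for HLA-B to 1.33 for HLA-F, and their median was 0.24. Among the 12 are the antisense transcript HLA-F-AS1 (1.12) and the pseudogene HLA-J (1.28). HLA-DMB, with signals of 114.2 and 90.8, a ratio of 0.80, was under the minimum with JPH203 and is not among the 12. HLA probe sets can bind transcripts of related HLA genes, so these 12 ratios may not be separate readings. Among 104 families of at least 8 genes that share a symbol stem, HLA had the highest median and the collagens, at 0.23, the next. Interferon-stimulated genes, which often move with HLA genes, had a median of 0.01 over 19 genes, with IFITM1 at 1.40 and IFIT1 at 0.79. HLA-B and HLA-C are on this list as well as among the 12.

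Cell cycle genes differed in opposite ways. RBL2 was higher at 2.20, while RB1, the retinoblastoma gene, was at 1.06 and RBL1 at 1.00. The CDK inhibitor CDKN1A had signals of 175 and 229 at a ratio of 1.31, and the anti-proliferative BTG1 was at 1.3. Of 31 measured G2/M and mitosis genes, 25 were lower, 2 of them by at least 1.3-fold, and the median was -0.14. Over all genes 51.6% were lower and 2.15% by at least 1.3-fold. MKI67, the gene of the Ki-67 antigen, had signals of 849 and 565 with probe sets at 0.67 and 0.80. CDK1, the mitotic kinase, had 2542 and 1874 with probe sets at 0.74 and 0.82. CDC20, which activates the anaphase-promoting complex, was at 0.79. Among 30 replication genes the median was -0.05 and the licensing factor CDT1, at 1.35, was the gene past 1.3-fold.

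The groups that were lower were mainly large protein complexes, each by a little. All 26 measured proteasome subunits had ratios below 1, from 0.74 for PSMC4 to 0.97 for PSMB6, with a median of -0.16. Over all genes 51.6% were below 1 and 2.15% at least 1.3-fold lower. PSMC4, an ATPase of the regulatory particle, had signals of 875 and 649 and was the subunit past 1.3-fold. The MYC and ribosome biogenesis list had a median of -0.13 over 18 genes, with PES1 (181 and 122, a ratio of 0.67) and NOP58 (922 and 689, 0.75), which process pre-ribosomal RNA, past 1.3-fold, while MYC was at 1.12. Of 74 mitochondrial ribosomal proteins, a list added after values had been seen, 60 were lower, and MRPS18C (1276.5 and 891, a ratio of 0.70) and MRPS9 (496 and 349.5, also 0.70) passed 1.3-fold. The subunits of the RNA exosome, also added, had the lowest median of the 104 families, -0.20 over 10 genes, with EXOSC2 at 0.73. All of these medians were lower than 0 on the scale of the poly-A spike-ins too, where they ranged from -0.01 to -0.09. Those of the cytosolic ribosomal proteins (-0.08 over 36 genes), translation initiation factors (-0.10 over 27) and respiratory chain (-0.10 over 27) were below 0 as deposited and above 0 on that scale, at 0.03, 0.01 and 0.01, and no gene of these 3 lists passed 1.3-fold. The local median was -0.035 around the bright CYP1B1 and 0.020 around the dim RBL2. With that dependence on signal removed by loess, the proteasome median relative to all genes was -0.11, beside -0.15. That of the cytosolic ribosomal proteins was -0.008, beside -0.07. The ribosome biogenesis, mitochondrial ribosomal and exosome medians stayed below 0, at -0.09, -0.11 and -0.18.

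**Figure D3:**
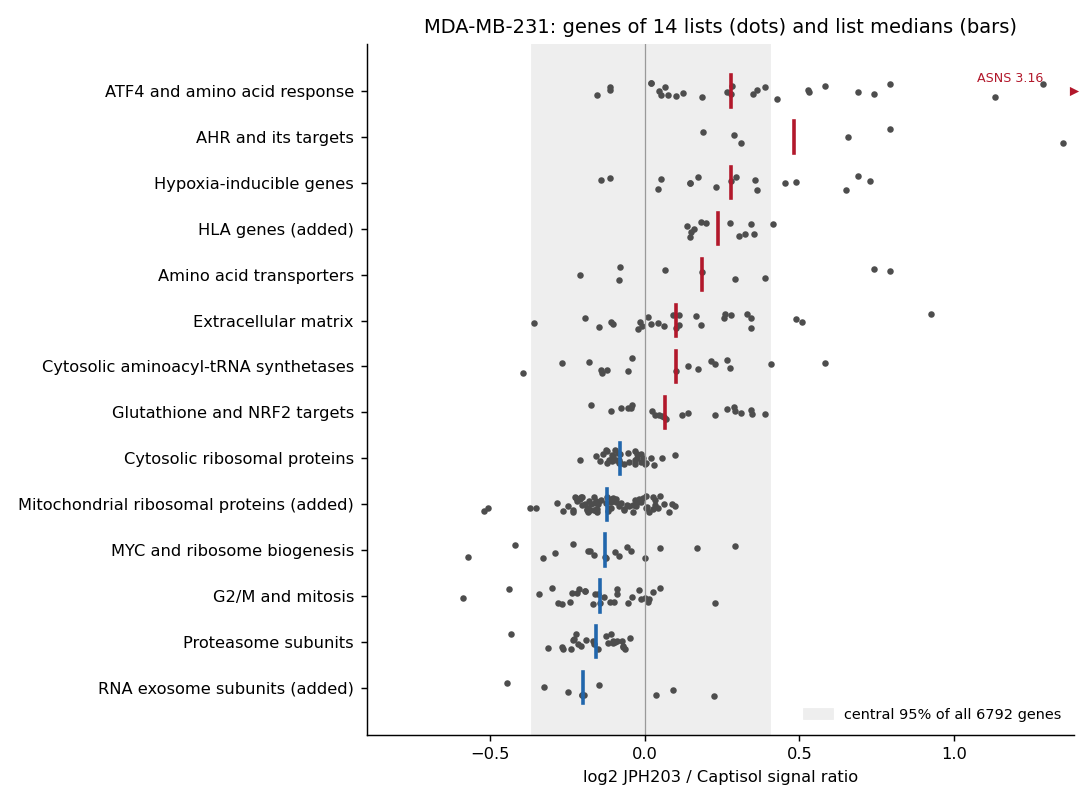
log2 ratio of JPH203 to Captisol signal (horizontal) for the measured genes of 14 lists (dots, jittered vertically), with the median of each list as a bar, red above and blue below 0, and the central 95% of all 6792 genes in grey. Lists marked as added were made after values had been seen, the arrow marks ASNS beyond the axis, and list medians run from 0.48 for the aryl hydrocarbon receptor list to -0.20 for the RNA exosome; on the poly-A spike-in scale the bar of the cytosolic ribosomal proteins lies above 0.

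Several genes outside these lists stood apart from genes of similar signal. Among the higher ones, LOXL4, a lysyl oxidase-like enzyme, had signals of 215 and 385 at a ratio of 1.79, and POLD4, the small subunit of DNA polymerase delta, had 149 and 278.5, a ratio of 1.87. AMIGO2, a cell adhesion protein, had 583 and 929, a ratio of 1.59. CD55, which shields cells from complement, was at 1.51 with a second probe set at 1.31. The polarity protein PARD6B was at 1.71, ITFG1 at 1.64, CCDC127 at 1.62, MAGED1 at 1.51 and the myosin light chain MYL12A at 1.46. Among the lower ones, UCA1, a long non-coding RNA, was the brightest, with 1083 and 646, a ratio of 0.60. INF2, a formin that assembles actin, had 459.6 and 265, a ratio of 0.58. PIGW, which acts in the synthesis of GPI anchors, had 491 and 285 (0.58), SMC5, of a chromosome maintenance complex, 289 and 171 (0.59), MOB4 395 and 241 (0.61) and CCDC86 514 and 319 (0.62). Each of the 7 lower genes had 1 probe set above the minimum, so none of them could be compared with another reading above it. Dimmer probe sets were mixed. One for SMC5, just under the minimum, had 94.6 and 97.6, a ratio of 1.03. One for INF2 had 36.9 and 43.6 (1.18) and one for AKAP12 39.5 and 28.6 (0.72).

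Falls just short of that distance included DNLZ, a mitochondrial chaperone partner (304 and 192, a ratio of 0.63), TRNAU1AP, which helps to insert selenocysteine (264 and 157, 0.60), and NNT, the proton-driven transhydrogenase that makes NADPH in mitochondria. NNT had 665 and 425 with probe sets at 0.64 and 0.79. TXNIP, an inhibitor of thioredoxin that responds to glucose, had 657.5 and 466 with probe sets at 0.71 and 0.64. Rises of the same kind, besides CEMIP and IL24, included SCG5 (127 and 226, a ratio of 1.78), UBL3 (1.74) and KIFAP3 (1.72), all of them dim.

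Probe sets of a gene are on the same array and so share its sample, and how far their probes overlap was not examined. Of 2388 genes with a second probe set above the minimum, the ratios of the pair had a Pearson's r of 0.41 across genes, which are not independent replicates, and the same direction in 63.1%. The difference between the log2 ratios of a pair had an SD of 0.21, about as wide as the spread of all genes. Of 54 such genes at least 1.3-fold higher, the second probe set was higher in 46 and at least 1.3-fold higher in 16, against 3.48% of all second probe sets, and it was at least 1.3-fold lower in 0. Of all second probe sets 47% were higher and 52.9% lower. The median log2 ratio was 0.46 for the brightest and 0.27 for the second probe sets of these genes. Of 38 genes at least 1.3-fold lower, the second probe set was lower in 31 and past 1.3-fold in 6, against 2.14% of all, with medians of -0.46 and -0.16. All 7 genes of this kind among the 23 that stood 4 robust SDs above had a second probe set that was higher too, 4 of them by at least 1.3-fold, CYP1B1, PSAT1, NNMT and CD55.

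The pairs that disagreed most in the 1.3-fold range fell on both sides. BCL2L11, a pro-apoptotic BH3 protein, had a brightest probe set at 0.70 (189 and 132.8) and a second at 1.17 (129.7 and 152). MMP24OS was at 0.74 and 1.26, the coiled-coil protein CCDC82 at 1.36 and 0.83, the kinesin KIF1B at 0.75 and 1.21, and NDUFAF5, an assembly factor of respiratory complex I, at 0.69 and 1.07. TMF1 (0.73 and 1.13) and WWP1 (1.3 and 0.88) also changed side between their probe sets. UBL3 (1.74 and 1.13), ITFG1 (1.64 and 1.08) and GGCX, the carboxylase that depends on vitamin K (1.59 and 1.07), kept the direction but not the size.

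**Figure D4:**
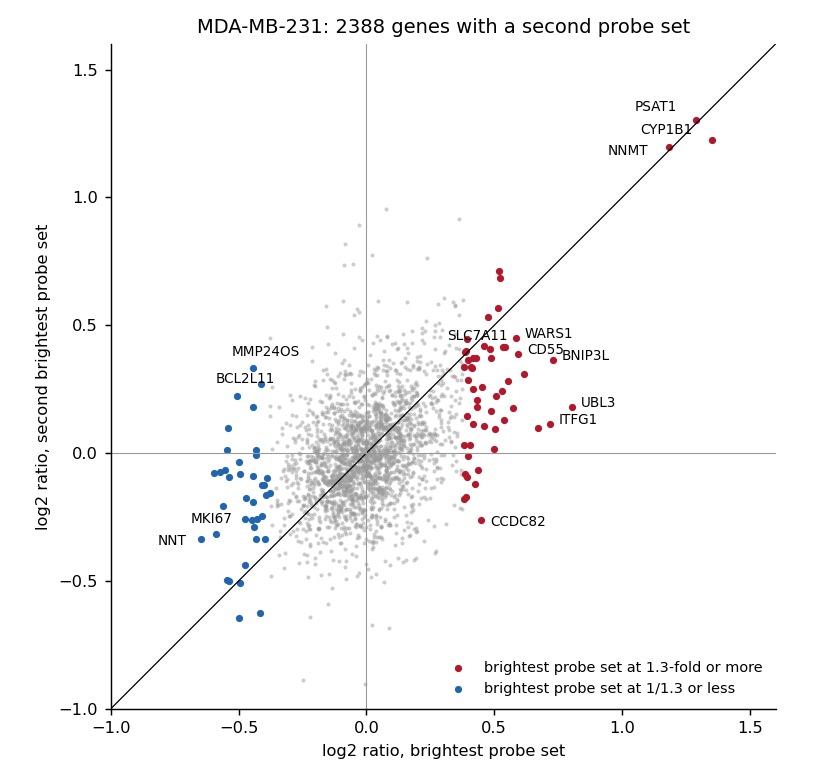
log2 ratio of JPH203 to Captisol signal of the second brightest probe set (vertical) against that of the brightest (horizontal) for 2388 genes with both above the minimum signal, 1 array per condition, with the line of equality. Red and blue points are the 54 and 38 genes past 1.3-fold by the brightest probe set; CYP1B1, PSAT1 and NNMT lie near the line, and most other coloured points lie nearer to 0 on the vertical axis.

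T-47D, a breast cancer line that expresses the estrogen receptor, was given the same treatments, again with 1 array each, and is set beside MDA-MB-231 with no test. Its ratios were spread far more widely, 95% of 5251 genes above the minimum on all 4 arrays lying between 0.505 and 1.98 in T-47D and between 0.781 and 1.32 in MDA-MB-231 cells. Among the genes past 1.3-fold upwards in MDA-MB-231, 152 could be read in both lines, and 27 of these were at least 1.3-fold higher and 44 as much lower in T-47D cells, where 22.4% of all genes were higher and 24.8% lower. The shared rises included ASNS, with T-47D signals of 488 and 2105, PSAT1 with 193 and 361, and SLC7A5 with 502 and 834. ATF4 was at 3.34 and DDIT3 at 9.53 in T-47D cells, beside 0.93 and 1.44 in MDA-MB-231 cells. CTH had 137 and 95.5 in T-47D cells, the latter under the minimum, and CYP1B1 was at 1.10 there. The proteasome subunits had a median of 0.27 in T-47D cells, beside -0.16 in MDA-MB-231 cells.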

How the data were processed

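Total RNA from each line, MDA-MB-231 or T-47D, was hybridised to Affymetrix U133 Plus 2.0 arrays, 1 for each line and treatment. The authors deposited linear signal intensity values for 54675 probe sets, made with GCOS per the submitters' processing notes, its version and settings not being given in the sources used here. After trimming the lowest and highest 2% of values, the mean signal per array was 100.02, as scaling every array to a target of 100 would give. Further normalization between arrays is not described. Detection calls were not used here.

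Probe sets were named from the platform annotation, in which 41097 name 1 gene, 1801 several and 11777 are not listed. Of the 41097, 41043 matched the RefSeq table of GRCh38.p14 by gene identifier, and 0 symbols changed. A gene took the value of the brightest probe set naming it alone, by mean log2 signal, with at least 100 on both arrays. The log2 ratio of JPH203 to Captisol signal was computed with no pseudocount. The robust SD is the scaled median absolute deviation over the 500 genes nearest in mean log2 signal, with a limit of 4.

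The genes measured, the thresholds and the 41 gene lists were chosen with earlier results of these data known, and 5 lists (HLA genes, mitochondrial ribosomal proteins, mitochondrial aminoacyl-tRNA synthetases, RNA exosome and inner membrane translocase subunits) were added after values were seen. Of 750 listed genes named on the array, 555 were measured, and 4 lists (LXR targets, fibroblast, immune and endothelial markers) had no measured gene. The genes named are those at 2-fold, the 15 largest rises and falls short of it, those past the local spread, up to 5 members of each list with the largest ratio and its defining members, genes the study names, and the 10 past 1.3-fold whose probe sets disagreed most. Any others, such as MRPS9, SHMT2 or the members of a list named for their role, were chosen after their values were seen.

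Alternatives were other minimum signals (50, 200), median centring, quantile normalization, loess (span 0.4), a pseudocount of 16, the mean of probe sets, exclusion of _x_at and _s_at probe sets, windows of 200 and 1000 genes and limits of 3 and 5 robust SDs. Scaling to 24 poly-A spike-in probe sets and the second brightest probe set for lists were chosen after seeing the data. Python 3.11.15, numpy 2.4.6, pandas 2.3.3, statsmodels 0.14.6 and matplotlib 3.10.9 were used.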

Additional observations from a re-analysis of the deposited data

Results flagged for a closer look

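Of the 23 genes that stood 4 robust SDs above genes of similar signal in MDA-MB-231 cells, 19 were above the minimum on all 4 arrays, and of these 5 were at least 1.3-fold higher and 5 at least 1.3-fold lower with JPH203 in T-47D cells, each by 1 array per condition, and the difference between the lines was not tested. NDRG1 had a ratio of 0.389 in T-47D cells (436 and 169.9) beside 1.57 in MDA-MB-231 cells (439 and 688.5). THBS1 (203.3 and 91.4) and CTH (137 and 95.5) fell under the minimum in T-47D cells and are not in these counts. PARD6B was at 0.487 in T-47D beside 1.71. TXNRD1 was at 0.602 beside 1.27, MAGED1 at 0.716 beside 1.51 and AMIGO2 at 0.752 beside 1.59. The wide spread of T-47D ratios, with 24.8% of genes measured on all 4 arrays at least 1.3-fold lower, belongs beside these values.

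The largest fall among all probe sets above the minimum on both MDA-MB-231 arrays belonged to an _x_at probe set that is not listed in the platform annotation used and is unnamed here. Its signal was 601 with Captisol and 194.5 with JPH203, a ratio of 0.323. It lies outside the comparison of named genes.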

How the results depend on the processing

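No paired analysis was possible because each condition has 1 array, and for the same reason no replicate could be left out. Median centring, quantile normalization, loess and windows of 200 or 1000 genes kept every count within 1.5 times and every list median within 0.1 of the reported values. Of 506 ratios of 61 named genes under the alternatives, 13 moved by more than the local spread. None of the genes past 1.3-fold changed side, but THBS1, at 1.27, was at 0.890 without _x_at and _s_at probe sets. With a minimum signal of 50, 10 genes were at least 2-fold higher and 5 lower, 400 and 276 lay between 1.3- and 2-fold, and the medians relative to all genes were 0.31 for the aryl hydrocarbon receptor list and 0.19 for cytokines. With a minimum of 200, 4 genes were 2-fold higher and 0 lower, 110 and 69 lay between 1.3- and 2-fold, and the transporter median was 0.35. A pseudocount of 16 left 0 genes 2-fold lower. With the mean of probe sets, 11 genes were past the local spread below, and the medians were 0.040 for serine and folate genes (a change of sign), -0.043 for fatty acid synthesis and 0.20 for histones. Without _x_at and _s_at probe sets, 3 genes were 2-fold higher and 0 lower, and the medians were -0.048 for cytosolic synthetases and -0.033 for transporters (both a change of sign), 0.46 for the methionine cycle list, 0.31 for the aryl hydrocarbon receptor list and -0.10 for AP-1 genes. Scaled to the poly-A spike-ins, the median of all genes moved by 0.11 to 0.10, 0 genes were 2-fold lower, 553 and 58 lay between 1.3- and 2-fold, and the transporter median was 0.075. At 3 robust SDs 69 genes were above and 38 below, and at 5 there were 7 and 2. By the second brightest probe sets, the medians were 0.16 for serine and folate genes, 0.092 for polyamine genes and 0.088 for mitochondrial synthetases (all 3 a change of sign), 0.12 for the methionine cycle list, 0.19 for NRF2 targets, -0.12 for glucose-sensing genes, -0.082 for mTORC1 regulators and -0.11 for pocket proteins and cyclins. The share of genes 1.3-fold higher whose second probe set was higher too was 85.2% as reported, 69.3% at a minimum of 50 and 100% at 200, and the share of lower genes with a lower one was 81.6%, or 62.5% without _x_at and _s_at probe sets. The cause of these changes was not tested, beyond the smaller or larger set of genes that each choice leaves.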

Other observations

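The YAP and TEAD targets had a median log2 ratio of 0.07 over 15 genes, with TGFB2, a growth factor, at 1.35, and the TGF-beta targets one of 0.11 over 11 genes, with the inhibitor SMAD7 at 0.76. Integrin subunits were at 0.13 over 6 genes, with none past 1.3-fold. Immediate early and AP-1 genes had a median of 0.06 over 19 genes, with SPRY2 at 1.32 and SPRED2, both inhibitors of Ras signalling, at 0.75. Among 17 lysosome and autophagy genes (0.07), SQSTM1, a receptor for autophagic cargo, was at 1.3. The p53 and apoptosis list (0.04 over 16) held CDKN1A and BCL2L11 past 1.3-fold, on opposite sides.

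Lipid genes were divided. SCD, which desaturates fatty acids, had signals of 256 and 358 at a ratio of 1.40, in a fatty acid synthesis list with a median of 0.07 over 5 genes. The sterol synthesis list had 11 of 14 genes lower, beside 51.6% of all genes. Its median was -0.07, and 0.04 on the poly-A spike-in scale. Apart from ASNS, the asparagine, glutamine and proline genes lay between 0.80 and 1.29, and their median was -0.02 over 12 genes. Replication-dependent histones were at 0.06 over 5 genes and the luminal markers at 0.08 over 5, while the inner membrane translocase subunits were at -0.16 over 13, with TIMM29 at 0.75 and TIMM9 at 0.76.

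Control probe sets gave further readings. The 3 for 18S ribosomal RNA had ratios of 0.742 to 0.789 between the JPH203 and Captisol arrays of MDA-MB-231 cells, with signals of 5962 and 4580 at the 5-prime end, whereas those for ACTB and GAPDH lay between 0.953 and 1.00. In T-47D cells the same 18S probe sets gave ratios between 0.804 and 1.49. Among 1131 probe sets above the minimum that name several genes or are not listed, 39 (3.45%) were at least 1.3-fold higher and 28 (2.48%) as much lower.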
